A study of Homo sapiens with 25 samples.

Results

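RNA of high dye cells was compared with RNA of midhigh dye cells, the upper 2 of 4 gates of a sort on dye accumulation, to find the genes that change at the top step of the dye range and, among them, genes that change there and not below. The comparison used 8 of the 25 libraries of the series, chosen by their labelled gate: 4 of high dye and 4 of midhigh dye, each gate with biological replicates 1 to 4. All 8 came from hiF-T cells, fibroblast-like cells made from BJ human skin fibroblasts. These cells expressed TERT, the catalytic subunit of telomerase, in both gates. For every one of these libraries the labels give the genotype as WT and the treatment as none, so that the gate was the only labelled difference. The design text speaks of sorting by proliferation status, and whether high dye stands for slow or fast division is not in the labels. The low and midlow gates (4 libraries each, same cells, genotype and treatment) give the steps below, and 4 ungated libraries entered the fit only. The step from midlow to midhigh is called the middle step and that from low to midlow the bottom step. All replicates came from 1 cell line, and the labels do not say whether a replicate number stands for a culture or a sort day. Unless stated otherwise, p-values measure the spread left among the 20 libraries of the fit after gate and replicate number are accounted for.

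When p53, a transcription factor stabilised by DNA damage and other stress, is active, it raises CDKN1A (p21), an inhibitor of the cyclin-dependent kinases that drive division. With these kinases inhibited, the RB and DREAM repressor complexes hold down the genes of DNA replication and mitosis, many of them through short promoter elements called E2F sites and CHR elements. Fibroblasts that stop dividing often also express more lysosomal, stress response and secreted matrix genes.

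The 4 high dye libraries held 16626562 to 18093963 gene counts and the 4 midhigh dye libraries 15806949 to 16542397. Transcripts of the 13 protein genes of mitochondrial DNA took 1.95% to 2.42% of counts in high dye and 2.01% to 2.22% in midhigh dye. All 12 fibroblast markers were measured, and their levels summed to 8280 to 10400 counts per 1e+06 gene counts (CPM) in high dye and 8850 to 11100 CPM in midhigh dye. Most of the sum came from COL1A1, COL1A2 and VIM (means of 3380, 3320 and 2100 CPM in high dye), while THY1 was at 0.395 CPM. Of the 10 epithelial markers 7 had a mean under 1 CPM, and of the 9 endothelial markers 6 did. KRT18 (186 CPM), KRT8 (34.9 CPM) and TEK (81.2 CPM) of these lists were well above that in high dye. Each of the 13 blood markers had a mean under 1 CPM in both gates, and LYZ, CD3E and HBA2 had no count in any of the 8 libraries. For a gene with no count, 3 counts (0.162 to 0.191 CPM) is the upper limit by counting error alone.

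Between high and midhigh dye, 2 of 14592 genes tested rose (0.0137%) and 0 fell (0%) at an adjusted p under 0.05 (edgeR quasi-likelihood test, replicate number as block). The 2 genes were GPNMB and VWCE. No gene was called without the replicate block, and DESeq2 with the block called 18 genes (0.123%) higher and 1 (0.00685%) lower. Without adjustment, 659 genes (4.52%) were higher and 519 (3.56%) lower at p under 0.05. In all 4 same-numbered pairs 1400 genes (9.59%) were higher and 1322 (9.06%) lower in high dye. The libraries of the 2 gates did not overlap for 102 genes (0.699%) that were higher and 100 (0.685%) that were lower in high dye.

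The same fit called 805 genes (5.52%) higher and 769 (5.27%) lower at the middle step, and 1 gene (0.00685%), IGFBP5, at the bottom step. Typical errors were alike, with a median standard error of the log2 fold change of 0.10 at each step. The median absolute log2 fold change was 0.08 at the top, 0.13 at the middle and 0.08 at the bottom step. At the top step the 95% interval of 10879 genes (74.6%) lay inside a 1.5-fold change either way, and that of 89.6% inside a 2-fold change. The top and middle steps share the midhigh dye libraries, so their values are not independent.

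**Figure D1:**
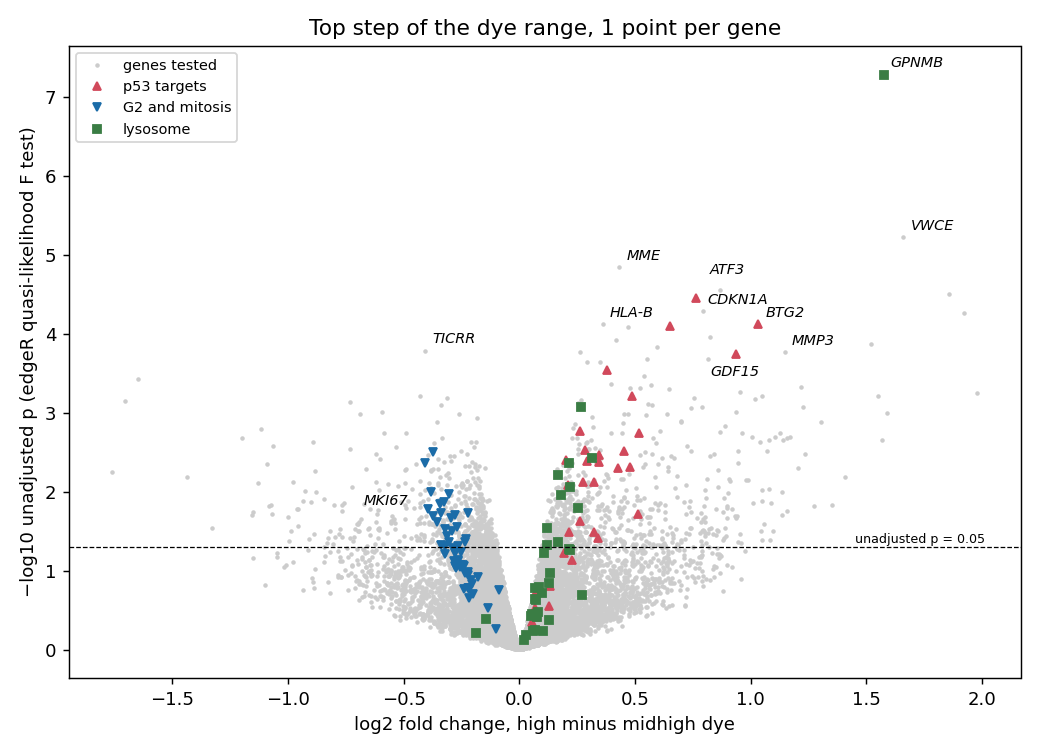
Each point is 1 of the 14592 genes tested, with the log2 fold change of high against midhigh dye on the horizontal axis and the unadjusted p-value as its negative log10 on the vertical axis. GPNMB and VWCE, the 2 genes called, stand apart at the upper right, at log2 fold changes of 1.57 and 1.66, and no gene on the left was called.

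GPNMB, which encodes a transmembrane glycoprotein of lysosomes and melanosomes, rose most firmly (ENSG00000136235, GRCh38 chr7:23235967-23275108). Its level was 40.7, 27.6, 30.3 and 10.1 CPM in high dye replicates 1 to 4, and 10.1, 6.71, 13.5 and 4.96 CPM in the midhigh dye libraries of the same numbers. The high dye library was above its partner in 4 of 4 pairs, and the gates overlapped only because high dye replicate 4 was low. The mean was 27.2 ± 12.7 CPM (SD, n = 4) against 8.82 ± 3.78 CPM, a log2 fold change of 1.57 ± 0.19 (SE, 95% interval 1.18 to 1.97, adjusted p = 0.000771 by edgeR).

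GPNMB also rose at the middle step. Its mean was 2.86 CPM in midlow and 1.62 CPM in low dye, and each gate was above the one below it in 4 of 4 replicates. The log2 fold change was 1.61 at the middle step (adjusted p = 0.000978) and 0.83 at the bottom step, and the top step did not differ detectably from the mean of the steps below it (difference 0.36 ± 0.28, 95% interval -0.23 to 0.94). The call held when any 1 of the 8 high and midhigh dye libraries was left out, but was lost without the replicate block (adjusted p = 1) and without all libraries of replicate 1 (0.233) or of replicate 2 (0.161). GPNMB is also a marker of melanocytes and Schwann cells. The summed level of the 11 markers of those cells was 19.3 to 44.7 CPM in high and 10.7 to 19 CPM in midhigh dye, most of it GPNMB itself. SOX10 had no count in the 8 libraries, and TYR and DCT reached at most 0.127 CPM, whereas MITF had a mean of 3.09 CPM in high and 2.55 CPM in midhigh dye, MLANA 0.984 and 0.814 CPM, PMEL 0.652 and 0.28 CPM and TYRP1 0.266 and 0.0926 CPM. The part of such cells in the rise was not tested. In bulk RNA a change in the number of cells of a kind and a change in RNA per cell cannot be told apart.

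VWCE, which encodes a secreted protein with von Willebrand factor C and EGF domains, was the other gene that rose (ENSG00000167992, chr11:61258286-61295424). Its level was low, at 3.04, 1.62, 3.24 and 0.862 CPM in high dye replicates 1 to 4 and 0.698, 0.294, 1.32 and 0.445 CPM in midhigh dye. It was higher in 4 of 4 pairs, while high dye replicate 4 lay below midhigh dye replicate 3. The log2 fold change was 1.66 ± 0.28 (adjusted p = 0.0435 by edgeR). In the gates below it measured 0.23 CPM in midlow and 0.21 CPM in low dye, with log2 fold changes of 1.52 at the middle and 0.11 at the bottom step. The top step exceeded the mean lower step by 0.85 ± 0.43 (unadjusted p = 0.0635, adjusted p = 0.807). The call is fragile: the adjusted p was 1 without the block, and passed 0.05 on leaving out high dye replicate 1 (0.228), 2 (0.155) or 3 (0.306), or midhigh dye replicate 1 (0.493), 2 (0.456) or 4 (0.107).

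**Figure D2:**
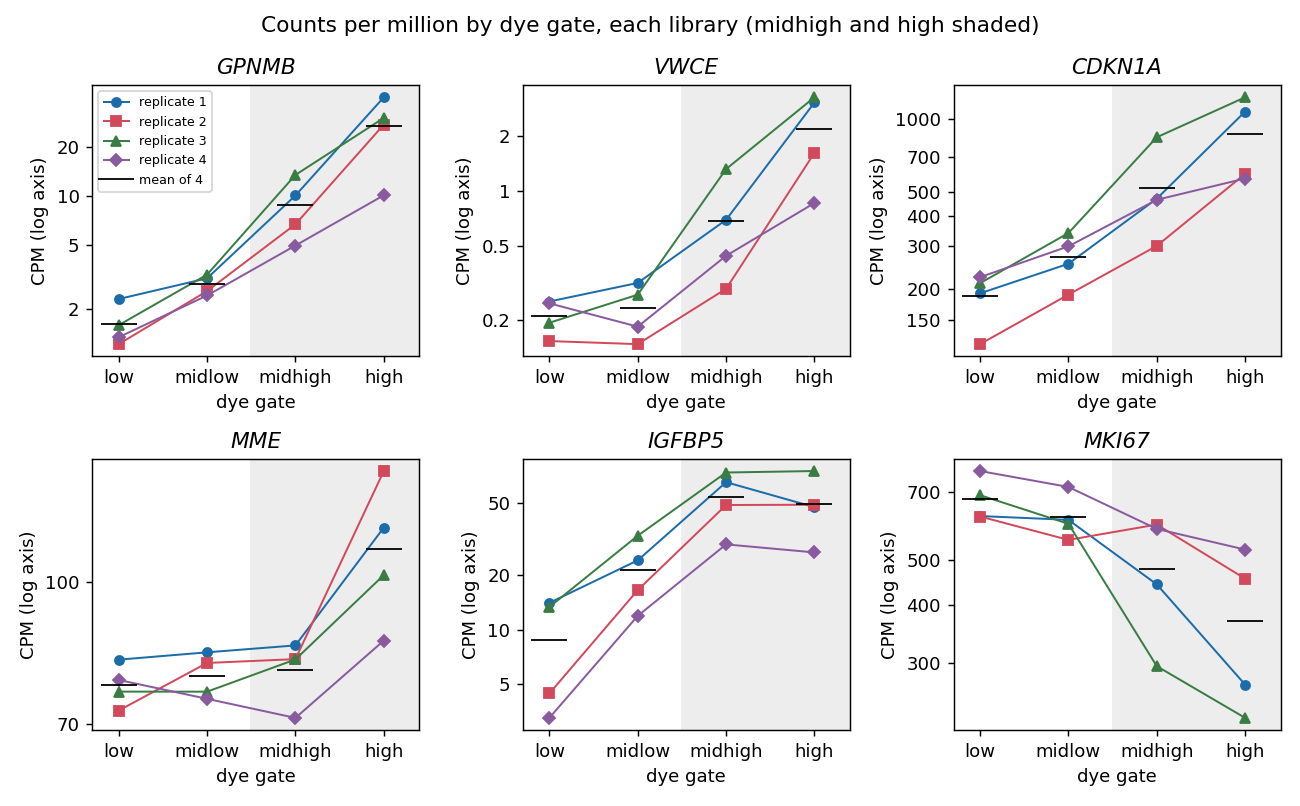
CPM of 6 genes in each library of the low, midlow, midhigh and high dye gates (horizontal axis), on a log vertical axis, with points for replicates and a black bar for the mean of the 4 libraries. The means of GPNMB and CDKN1A climb at every step, that of MME lies level until midhigh dye, and IGFBP5 climbs to midhigh dye and lies at 26.7 to 75.2 CPM in high dye.

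The sequence just upstream of GPNMB is shown because it holds the single match to a fixed motif found before either called gene. The 250 bases before the RefSeq start of each gene (GRCh38.p14) were searched on both strands for E2F sites (TTTGGCGC, TTTCGCGC), the CHR element (TTTGAA), AP-1 (TGACTCA), CRE (TGACGTCA), a C/EBP-ATF site (TGATGCAA), an E-box (CACGTG) and the antioxidant element (TGACNNNGC). The AP-1 match lies 134 to 128 bases before the start, on the minus strand, in an exon that GENCODE assigns to a longer GPNMB transcript. Capitals mark the match in the plus strand at chr7:23246631-23246657:
GPNMB: caagaaggagTGAGTCAtaagcacatg
AP-1 matches were found before 2.55% of the 10555 tested genes with a promoter in the table and 4.16% of all 27305 genes in it. The windows of VWCE and IGFBP5 held none of these letters. A match is a description of the sequence and not a bound site.

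To find genes that change at the top only, 2 conditions were added to the call: that the top step differ from the mean lower step at an adjusted p under 0.05, and that the 95% interval of midhigh against low dye lie inside a 1.5-fold change. No called gene met the first condition, in the edgeR fit or with DESeq2. At an unadjusted p under 0.05, 317 genes (2.17%) had a higher and 573 (3.93%) a lower top step than mean lower step. The top step against the bottom step, which share no library, differed for 0 genes (0%) after adjustment and for 671 (4.6%) before it. A test on 38399 genes with no filter on low counts gave 5 genes with a call and a different top step: MME, GAS5 and MMP3 higher, TOP2A and SCUBE3 lower. For 3 of them (MME, GAS5, TOP2A) the interval below was also inside 1.5-fold. Without the filter edgeR called many more genes at the top step (251 against 2), with smaller p-values. The adjusted p of GPNMB was 1.63e-37 without the filter and 0.000771 with it. In the filtered edgeR fit the difference of the top step from the mean lower step had an adjusted p of 0.597 for MME, 0.679 for GAS5 and 0.756 for TOP2A. MME, AP1AR, CEP89 and the genes described with them were chosen after their values were seen, by their unadjusted p, and none of them passed the adjusted test at the top step in the edgeR fit.

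MME, which encodes neprilysin, a peptidase of the cell surface, came closest to the pattern (ENSG00000196549, chr3:155024124-155183729). It measured 115, 132, 102 and 86.4 CPM in high dye replicates 1 to 4, and 85.3, 82.4, 82.4 and 71.1 CPM in midhigh dye. Every high dye library was above every midhigh dye library. The means were 79 ± 4.44 CPM in midlow and 77.2 ± 4.14 CPM in low dye, close to the 80.3 ± 6.28 CPM of midhigh dye. The log2 fold change was 0.43 ± 0.08 at the top (adjusted p = 0.0702), 0.02 at the middle and 0.03 at the bottom step, and midhigh against low dye had an interval of -0.11 to 0.21. The top step exceeded the mean lower step by 0.41 ± 0.10 (unadjusted p = 0.000741, adjusted p = 0.597). DESeq2 called MME at the top step (adjusted p = 0.00206). MME shares exon sequence with the antisense gene MME-AS1, and reads of the 2 cannot be told apart without strand.

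AP1AR, a regulator of the AP-1 adaptor complex of vesicle transport, measured 35.4 ± 6.88 CPM in high and 29.4 ± 4.69 CPM in midhigh dye. Its log2 fold change was 0.26 ± 0.06 (adjusted p = 0.132), with an interval of -0.16 to 0.09 for midhigh against low dye. PRKCE and HLA-B were also higher below the top. PRKCE, which encodes protein kinase C epsilon, was higher at the top by 0.42 ± 0.09 in 4 of 4 pairs (adjusted p = 0.127 by edgeR, 0.0308 by DESeq2), and midhigh against low dye gave 0.25 (interval 0.06 to 0.44). HLA-B, a class I antigen presentation gene, was higher by 0.36 ± 0.07 in 4 of 4 pairs (adjusted p = 0.0998 by edgeR, 0.0123 by DESeq2), and rose from low to midhigh dye by 0.24 (adjusted p = 0.0249). HLA-B has near copies in HLA-C and other class I genes, so its counts are uncertain. GAS5, a host gene of small nucleolar RNAs, had 202, 164, 141 and 144 CPM in high dye and 163, 117, 128 and 137 CPM in midhigh dye. It was higher by 0.25 ± 0.08 at the top step (adjusted p = 0.369), after a fall of -0.21 from low to midhigh dye (adjusted p = 0.0401).

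Among genes that were lower at the top, CEP89, which encodes a protein of the centriole's distal appendages, measured 47, 47.5, 44 and 49.6 CPM in high dye and 54.6, 51.6, 52 and 55.5 CPM in midhigh dye. All high dye libraries lay below all midhigh dye libraries, by a log2 fold change of -0.18 ± 0.05 (adjusted p = 0.265). Midhigh against low dye gave an interval of -0.05 to 0.15. CDC25B, the phosphatase that activates cyclin-dependent kinase at entry into mitosis, was lower by -0.33 ± 0.10 (adjusted p = 0.333) and lower in 4 of 4 pairs. Its interval below was -0.21 to 0.19. WDR90, another centriole gene, was at -0.36 ± 0.10 and ITGA10, which encodes an integrin alpha chain that binds collagen, at -0.34 ± 0.09, but ITGA10 also fell at the middle step (-0.31, adjusted p = 0.0245). TICRR, which starts replication origins together with TOPBP1, had the smallest p of all genes that were lower at 10 CPM or more. It measured 13.6, 18.4, 12.7 and 17.2 CPM in high dye and 21.1, 24.6, 13.9 and 22.8 CPM in midhigh dye, a log2 fold change of -0.41 ± 0.09 (adjusted p = 0.132 by edgeR). DESeq2 called TICRR, as its single fall.

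Targets of p53 were higher together at the top step, although none passed the adjusted test in the edgeR fit. DESeq2 called CDKN1A (adjusted p = 0.0357), BTG2 (0.0117), TP53INP1 (0.0123) and PHLDA3 (0.043) higher. All 32 measured members of the list had a log2 fold change above 0, with a median of 0.31 against -0.00178 over all genes tested, and 24 of 32 had an unadjusted p under 0.05 (4.52% of all genes were higher at this p). In 17 of 32 the level was higher in 4 of 4 pairs (9.59% of all genes were). All high dye libraries lay above all midhigh dye libraries for 0 of 32 (0.699% of all genes). Members of this and the other lists were chosen with earlier results of these data known, so a shared sign is a description only. CDKN1A measured 1072, 596, 1226 and 570 CPM in high dye replicates 1 to 4 and 471, 302, 841 and 466 CPM in midhigh dye. The high dye library was higher in each pair, and the gates overlapped because the pairs differed in level. The log2 fold change of CDKN1A was 0.77 ± 0.15 (adjusted p = 0.0875 by edgeR).

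BTG2, an antiproliferative gene, measured 17.4, 11.3, 23.7 and 7.07 CPM in high and 5.9, 3.18, 13.5 and 6.99 CPM in midhigh dye. Its log2 fold change was 1.03 ± 0.21 (adjusted p = 0.0998), and pair 4 was nearly level. GDF15, a secreted stress cytokine, had 299, 123, 350 and 116 CPM against 130, 48, 220 and 80.9 CPM, a log2 fold change of 0.94 ± 0.21 (adjusted p = 0.134). TP53INP1, which takes part in p53 signalling and autophagy, was higher by 0.65 ± 0.13 (adjusted p = 0.0998). MDM2, the ubiquitin ligase that degrades p53, was higher in 3 of 4 pairs, with 75.5 against 87.8 CPM in pair 4, by 0.43 ± 0.14 (adjusted p = 0.427). CDKN1A and MDM2 share exon sequence with other genes (DINOL and CPM among them), whose reads cannot be told apart without strand. CDKN1A, BTG2, GDF15 and TP53INP1 were higher in each gate than in the one below it in 4 of 4 replicates, and the list's median was 0.32 at the middle and 0.22 at the bottom step. At the middle step 16 of 32 members rose by the adjusted test (5.52% of all genes).

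The 4 pairs were not alike. The median log2 difference of the p53 list was 0.47, 0.36 and 0.29 in pairs 1 to 3 and 0.02 in pair 4. Replicate 4 was likewise nearly level for the mitosis list (-0.01) and the DNA replication list (-0.02). Leaving out high dye replicate 4 raised the number of calls from 2 to 63, and leaving out every library of replicate 3 raised it to 38. With every library of replicate 1 or of replicate 2 left out it was 0. A fit of the 8 compared libraries alone, in which the spread of the other gates does not enter, called 103 of 13854 genes (0.743%) higher and 65 (0.469%) lower. It called 12 of 32 p53 targets, 8 of 24 stress response genes, 5 of 25 NRF2 and iron genes and 3 of 34 lysosomal genes higher, and 11 of 52 mitosis and 4 of 48 DNA replication genes lower. That fit has only 3 residual degrees of freedom, against 12 in the fit of 20 libraries.

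**Figure D3:**
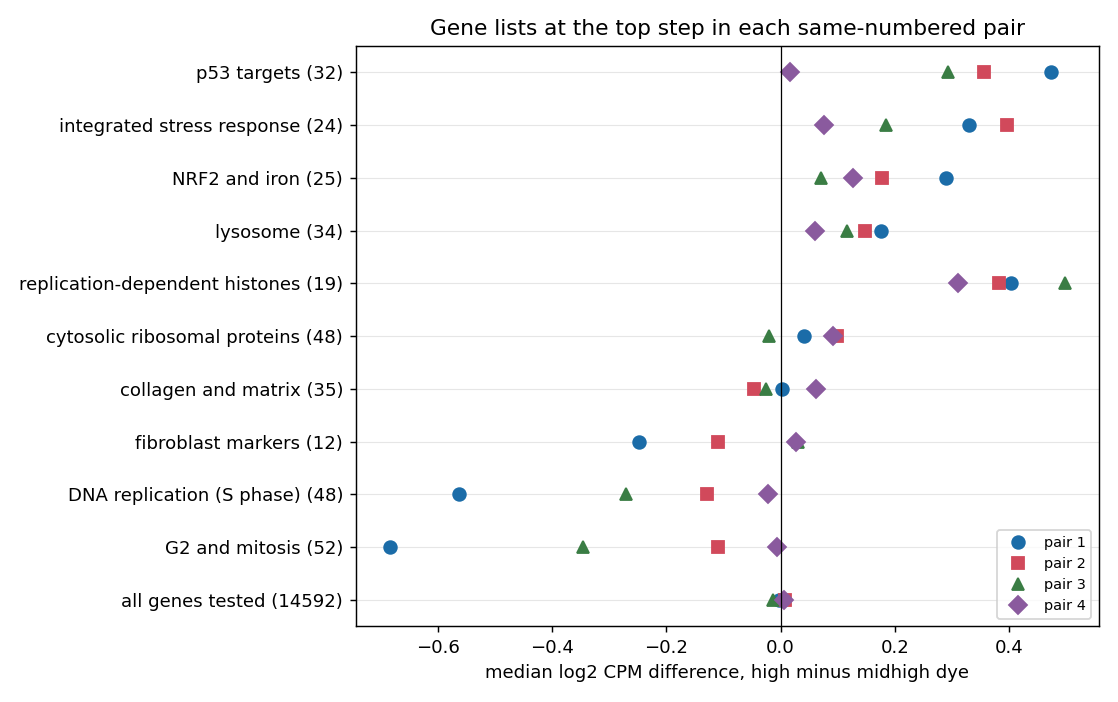
Median log2 difference of high against midhigh dye over the measured members of each gene list (rows), in each of the 4 same-numbered pairs of libraries (points). Pair 4 lies close to 0 for the p53, DNA replication and mitosis lists, at 0.02, -0.02 and -0.01, where pair 1 lies farthest from 0.

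Among the other inhibitors of cyclin-dependent kinases, CDKN2B (p15) was higher by 0.48 ± 0.15 (adjusted p = 0.417) and CDKN2A (p16 and ARF) by 0.20 ± 0.09 (adjusted p = 0.604). With CDKN1A, 3 of the 8 measured inhibitors were higher at an unadjusted p under 0.05 (4.52% of all genes) and 0 were lower (3.56%). Of the 8, 4 had a log2 fold change above 0 and 4 below it, with a median of -0.02. CDKN2A overlaps the antisense gene CDKN2B-AS1.

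Genes of G2 and mitosis were lower as a list. Of 52 measured members, 52 had a log2 fold change below 0, with a median of -0.26, and 23 had an unadjusted p under 0.05 (3.56% of all genes were lower at this p). None passed the adjusted test in the fit of 20 libraries, and 25 were lower in 4 of 4 pairs (9.06% of all genes were). All high dye libraries lay below all midhigh dye libraries for 0 of 52 (0.685% of all genes). MKI67, which encodes the proliferation antigen Ki-67, measured 270, 456, 229 and 526 CPM in high and 443, 595, 296 and 583 CPM in midhigh dye. It was lower in each pair, while replicates 2 and 4 of both gates were high and replicate 3 low. The log2 fold change was -0.39 ± 0.15 (adjusted p = 0.542). ESPL1, which encodes separase, the protease that frees sister chromatids, was lower by -0.41 ± 0.13, CDCA8, a subunit of the chromosomal passenger complex, by -0.37 ± 0.11, and ASPM, a spindle pole protein, by -0.38 ± 0.13.

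The list's medians were -0.26 at the top, -0.41 at the middle and 0.00224 at the bottom step. TOP2A, which untangles DNA before chromosomes separate, was higher in midlow than in low dye, unlike the list's median. Its mean was 449 CPM in low, 581 in midlow, 498 in midhigh and 406 in high dye, so that the top step (-0.32 ± 0.12, adjusted p = 0.537) had the opposite sign to the bottom step (0.37 ± 0.12). The difference between those 2 steps was -0.69 ± 0.17 (unadjusted p = 0.00057, adjusted p = 0.998). Because low and midhigh dye were alike in TOP2A, the gene fits the description of little change below while moving both ways within it.

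Promoters of 3 mitosis genes are printed because the CHR element was frequent in this list: 25 of the 43 members with a promoter in the table (58.1%) held TTTGAA on either strand in the 250 bases before the start, against 8.76% of the tested genes and 13.6% of all genes. This share, like those given for the lists below, describes the sequence of list members and is not a result of the dye comparison. Capitals mark the matches, sequences run 5′ to 3′ on the gene's own strand, and that of ASPM stops where an annotated exon begins. They lie at chr10:128126424-128126673 (MKI67, minus strand), chr12:53268049-53268298 (ESPL1, plus strand) and chr1:197146695-197146919 (ASPM, minus strand) of GRCh38.p14:
MKI67: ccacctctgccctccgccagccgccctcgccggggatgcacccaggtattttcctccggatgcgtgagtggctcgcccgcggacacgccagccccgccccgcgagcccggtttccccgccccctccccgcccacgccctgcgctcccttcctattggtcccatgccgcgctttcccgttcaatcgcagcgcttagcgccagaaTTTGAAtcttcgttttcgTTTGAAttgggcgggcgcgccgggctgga
ESPL1: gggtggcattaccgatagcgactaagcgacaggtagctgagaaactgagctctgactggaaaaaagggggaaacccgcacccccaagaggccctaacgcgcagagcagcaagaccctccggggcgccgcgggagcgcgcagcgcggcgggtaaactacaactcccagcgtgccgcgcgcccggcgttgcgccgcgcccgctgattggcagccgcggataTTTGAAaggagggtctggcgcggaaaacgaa
ASPM: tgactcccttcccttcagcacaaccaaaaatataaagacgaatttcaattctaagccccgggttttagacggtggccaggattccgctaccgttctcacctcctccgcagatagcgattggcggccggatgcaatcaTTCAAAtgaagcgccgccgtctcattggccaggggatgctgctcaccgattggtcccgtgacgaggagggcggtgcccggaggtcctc

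DNA replication genes were also lower as a list. Of 48 measured members, 47 had a log2 fold change below 0, with a median of -0.21, and 6 had an unadjusted p under 0.05 (3.56% of all genes). The medians at the middle and bottom steps were -0.53 and -0.17, and 39 of 48 fell at the middle step by the adjusted test (5.27% of all genes). MCM2, a subunit of the replicative helicase, measured 57.2, 96.2, 46 and 102 CPM in high and 90, 112, 56.9 and 105 CPM in midhigh dye, a log2 fold change of -0.28 ± 0.15 (adjusted p = 0.646). ORC1, which marks replication origins, was at -0.28 ± 0.15 at the top and fell by 0.74 at the middle step. CDT1 (-0.40 ± 0.16) and CLSPN (-0.37 ± 0.15), which license origins and relay replication stress, were lower in high dye with unadjusted p of 0.0203 and 0.0202. Either E2F site was found before 8 of 41 members with a promoter (19.5%), against 1.69% of tested genes.

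Lysosomal genes were slightly higher. Of 34 measured members 32 had a log2 fold change above 0, with a median of 0.11, and GPNMB alone was called. At an unadjusted p under 0.05, 11 were higher (4.52% of all genes were). PSAP, the precursor of the saposins that help to break down sphingolipids, measured 1038, 696, 925 and 634 CPM in high and 810, 578, 786 and 554 CPM in midhigh dye, a log2 fold change of 0.27 ± 0.07 (adjusted p = 0.239). Every pair was higher in high dye. HEXA, a subunit of beta-hexosaminidase, was higher by 0.31 ± 0.10 (adjusted p = 0.392) and by 0.08 at the middle step. The E-box CACGTG, the core of the element bound by the lysosomal regulator TFEB, was found before 8 of 22 members with a promoter (36.4%), against 8.78% of tested genes.

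Of 24 measured genes of the integrated stress response, in which phosphorylation of the initiation factor eIF2 raises ATF4 and its targets, all had a log2 fold change above 0. The median was 0.22, and 10 were higher at an unadjusted p under 0.05 (4.52% of all genes were). ATF3, a stress transcription factor that p53 also induces, measured 27.6, 10.9, 50.2 and 9.03 CPM in high and 11.9, 4.41, 27.3 and 9.15 CPM in midhigh dye. It was higher in 3 of 4 pairs and level in pair 4, by 0.87 ± 0.16 (adjusted p = 0.0875 by edgeR, 0.00266 by DESeq2). CHAC1, which degrades glutathione, was higher by 0.55 ± 0.14 (adjusted p = 0.257) and CEBPB, a transcription factor, by 0.32 ± 0.09 (adjusted p = 0.31). In the list of NRF2 targets and iron genes 24 of 25 members had a log2 fold change above 0 (median 0.16). Of these members 7 were higher at an unadjusted p under 0.05 (4.52% of all genes were). FTL and FTH1, the ferritin chains that store iron, were higher by 0.48 ± 0.12 and 0.54 ± 0.16, and AKR1C1, an aldo-keto reductase, by 0.89 ± 0.24. The ferritins and AKR1C1 have near-identical copies or pseudogenes, and FTH1 overlaps another gene, so their counts are uncertain.

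**Figure D4:**
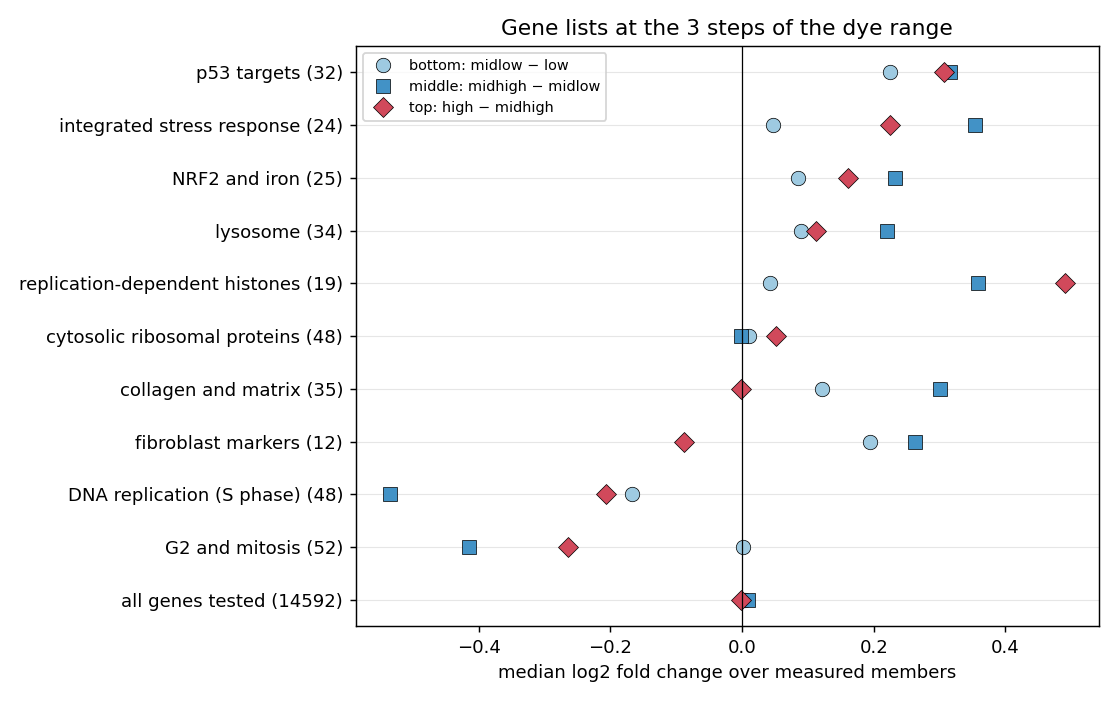
Median log2 fold change of 11 gene lists (rows) at the top, middle and bottom steps of the dye range (points). The p53 list lies above 0 at all 3 steps (0.31, 0.32 and 0.22), whereas the collagen and matrix list lies at 0.30 at the middle and at -0.00101 at the top step.

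Histone genes, nearly all of the replication-dependent kind, had a median of 0.49 at the top step, at low levels. The median was 0.241 without high dye replicate 3 and 0.659 without midhigh dye replicate 3. Of 39 listed genes 19 were measured, of which 15 were higher and 4 lower. At an unadjusted p under 0.05, 3 were higher (4.52% of all genes) and 0 lower (3.56%). H2AC6 measured 14, 10.3, 26.7 and 13.4 CPM in high and 8.63, 6.06, 18.5 and 8.64 CPM in midhigh dye, a log2 fold change of 0.64 ± 0.17 (adjusted p = 0.252). It was higher in 4 of 4 pairs. H4C8 was at 0.95 ± 0.28 and H3C10 at 0.74 ± 0.31, at means of 6.17 and 1.14 CPM in high dye. Transcripts of these genes normally lack a poly(A) tail and these libraries were selected for poly(A), so the counts cover the polyadenylated share. The genes are also near copies of each other, so their counts are uncertain.

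IGFBP5, a secreted binding protein of insulin-like growth factors, was the single gene whose top step differed from the mean lower step after adjustment in the fit of 20 libraries (ENSG00000115461, chr2:216672105-216695525, 0.00685% of genes). It rose at both lower steps, by a log2 fold change of 1.33 ± 0.19 at the bottom (adjusted p = 0.00777) and 1.37 ± 0.16 at the middle (adjusted p = 0.000148). At the top it measured 47.5, 48.9, 75.2 and 26.7 CPM in high and 65.2, 48.8, 73.8 and 29.6 CPM in midhigh dye. Pairs 2 and 3 were slightly higher and pairs 1 and 4 lower, and the gates overlapped in full. The log2 fold change was -0.14 ± 0.15 (95% interval -0.45 to 0.18, adjusted p = 0.841), and the difference between the top and the mean lower step was -1.49 ± 0.20 (adjusted p = 0.00483 by edgeR). Genes with such a difference numbered 3 with DESeq2, 5 with the 16 gated libraries, 39 with no filter on low counts, 4 without every library of replicate 3, and 0 without the block, without midhigh dye replicate 1, 2 or 4, or without every library of replicate 4. The difference kept its size (-1.62 to -1.39) whichever high or midhigh dye library was left out, but its adjusted p was 1 without the block, 0.113, 0.0665 and 0.0577 without midhigh dye replicate 1, 2 or 4, and 0.246 without replicate 4 of every gate. The midhigh dye libraries enter both sides of this difference. Against the bottom step, which shares no library with the top step, the top step differed for 0 genes (0%) after adjustment. IGFBP5 thus did not pass that test. IGFBP5 shares exon sequence with an antisense gene, AC007563.2.

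Collagen and matrix genes had the same outline at smaller size. The median of 35 measured members was -0.00101 at the top step, with 17 higher and 18 lower, against 0.30 at the middle and 0.12 at the bottom step. At the middle step 19 of 35 rose (5.52% of all genes) and 1 fell (5.27%) by the adjusted test. At the top step NID1, a basement membrane linker that was also the one fall below, had the only unadjusted p under 0.05 (-0.15 ± 0.07). In 16 of 35 the top step was lower than the mean lower step at an unadjusted p under 0.05 (3.93% of all genes were), and in 0 it was higher. None passed the adjusted test. That count was 3 without the block and 9 without midhigh dye replicate 3.

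COL1A1, the main chain of type I collagen, measured 4118, 2852, 3220 and 3346 CPM in high and 4491, 3623, 3447 and 3250 CPM in midhigh dye. It was lower in 3 of 4 pairs, by -0.13 ± 0.08 (adjusted p = 0.7), after a rise of 0.37 ± 0.08 at the middle step (adjusted p = 0.00665). COL11A1, a fibrillar collagen of cartilage and activated fibroblasts, measured 89.5, 114, 367 and 190 CPM in high and 89.8, 92.2, 353 and 166 CPM in midhigh dye. The replicates differed far more than the gates, with replicate 3 high in both. Its log2 fold change was 0.13 ± 0.14 at the top and 1.14 ± 0.15 at the middle step (adjusted p = 3e-04), a difference between the top and the mean lower step of -0.88 ± 0.19 (unadjusted p = 0.000134, adjusted p = 0.39). COL5A1 and COL5A2, chains of type V collagen, were at -0.02 ± 0.07 and -0.06 ± 0.05 at the top after rises of 0.44 and 0.23 at the middle step. The sign of COL5A1 at the top turned in 3 of 19 alternatives.

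Some other genes turned from a rise below to a lower level at the top, none of them called at the top. DSEL, an epimerase of dermatan sulfate synthesis, rose by 0.33 at the middle step and was lower by -0.15 ± 0.06 at the top (difference from the mean lower step -0.45, unadjusted p = 1.82e-05, adjusted p = 0.1). SCUBE3, a secreted glycoprotein, was at -0.23 ± 0.10 at the top and 0.30 at the middle step. CREB3L1, a transcription factor that activates collagen genes, was at -0.13 ± 0.06 at the top after a rise of 0.26. Among 19 contractile genes the top step was lower than the mean lower step at an unadjusted p under 0.05 in 6, and among 12 fibroblast markers in 3 (3.93% of all genes).

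Secreted and inflammatory factors were uneven. Of 34 measured genes 4 were higher (4.52% of all genes) and 1 lower (3.56%) at an unadjusted p under 0.05. The median log2 fold change of the list was 0.09. MMP3, a matrix protease, measured 30.2, 24.5, 26.1 and 22.8 CPM in high and 12, 4.41, 16.5 and 16.1 CPM in midhigh dye. The gates did not overlap, and the log2 fold change was 1.15 ± 0.25 (adjusted p = 0.132). MMP3 shares exon sequence with WTAPP1. SPP1, the secreted phosphoprotein osteopontin, had 445, 179, 315 and 83.5 CPM against 208, 86.9, 208 and 62.2 CPM, higher in every pair by 0.82 ± 0.18 (adjusted p = 0.14). CXCL2, a neutrophil chemokine, was higher by 0.61 ± 0.17 (adjusted p = 0.319).

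CPE and SCG5, which encode a carboxypeptidase and a chaperone of the secretory granules of endocrine and nerve cells, were among the 12 smallest p of the genes higher in 4 of 4 pairs at 10 CPM or more. CPE measured 61.4, 54.8, 59.2 and 32.1 CPM against 37.4, 37, 47.7 and 26.6 CPM, higher by 0.47 ± 0.10 (adjusted p = 0.0998 by edgeR, 0.0123 by DESeq2). SCG5 was higher by 0.83 ± 0.17 (adjusted p = 0.125 by edgeR, 0.0267 by DESeq2). Both genes were higher in each gate than in the one below it in 4 of 4 replicates. The 15 neuronal markers, SCG5 included, summed to 876 to 1360 CPM in high and 792 to 1350 CPM in midhigh dye. Most of that came from UCHL1 (means of 788 CPM in high and 713 CPM in midhigh dye) and NEFM (305 and 304 CPM). Of the 15, 7 had a mean under 1 CPM, and STMN2 had no count in the 8 libraries.

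Smaller groups of higher genes were found in 3 further lists, against 4.52% of all genes at an unadjusted p under 0.05. In the autophagy list 5 of 23 were higher at that p, and the median was 0.06. Among them were SQSTM1, the autophagy receptor p62, at 0.65 ± 0.16 and GABARAPL1, a protein of autophagosome membranes, at 0.40 ± 0.11. SQSTM1 overlaps other genes, so its counts are uncertain. Of 23 apoptosis regulators 4 were higher, with BMF, a BH3-only activator of cell death, at 1.16 ± 0.33, and the median was near 0. The level of BMF was low, with means of 1.34 CPM in high and 0.614 CPM in midhigh dye (adjusted p = 0.333 by edgeR). In midhigh dye replicate 2 it was at 0.118 CPM. Of 22 immediate early genes 4 were higher and 1 lower (3.56% of all genes were lower), ATF3 among the former, with a median of 0.05.

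Other lists had medians closer to 0 than the p53 list. The 25 genes of nucleolar ribosome biogenesis and MYC targets had 0 members with an unadjusted p under 0.05 and a median of -0.01, against -0.16 at the middle step. Of 48 cytosolic ribosomal protein genes 44 were higher, with a median of 0.05. Of the 48, 4 were higher at an unadjusted p under 0.05 (4.52% of all genes were), for example RPS6 at 0.12 ± 0.05. Their many pseudogenes make these counts uncertain. In the cholesterol synthesis list 2 of 21 were lower at an unadjusted p under 0.05 (3.56% of all genes were).

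The reprogramming factors and the chromatin enzymes of the drug arm of the series did not differ detectably at the top step. TERT measured 1314 ± 621 CPM in high and 1182 ± 510 CPM in midhigh dye, a log2 fold change of 0.14 ± 0.18, and its spread lay between replicates. KDM1A, the histone demethylase LSD1, was at -0.11 ± 0.07 and DOT1L, a histone H3 methyltransferase, at -0.18 ± 0.09. POU5F1 (-0.23 ± 0.28) and SOX2 (-0.24 ± 0.26) had low levels and wide intervals, from -0.80 to 0.35 for POU5F1, while KLF4 was at 0.08 ± 0.10 and MYC at -0.01 ± 0.06. Adjusted p by edgeR was 0.626 for DOT1L and higher for the other 6 genes. The labels do not say which copies, native or transgenic, the counts of these factors come from.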

How the data were processed

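Poly(A) RNA libraries of sorted hiF-T cells were analysed from the counts that the authors deposited, 1 per Ensembl gene and library. STAR and HTSeq on hg38 (GRCh38) are named in the submitters' processing notes. Versions, annotation release and strand setting are not given in the sources used here, and per the labels' protocols the kit does not record strand. HTSeq's rows of uncounted reads stayed out of all totals: no feature took 4.98% to 7.72% and ambiguous reads 7.16% to 7.57% in the 8 libraries. Symbols were found for 57532 of 58302 genes.

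All 20 sort libraries entered 1 fit (edgeR 4.0.16, R 4.3.3, quasi-likelihood F test, TMM, filterByExpr with minimum count 10 and minimum total 15, 14592 genes), with gate as the group and the replicate number as a block. Calls were made at an adjusted p under 0.05 (Benjamini-Hochberg, all genes tested). Only called genes are said to rise or fall. Log2 fold changes carry standard errors, and CPM are scaled with TMM. Same-numbered libraries paired: residuals correlated at 0.146 to 0.618 in 40 of 40 same-number pairs (0.455 to 0.618 between high and midhigh dye), and at -0.473 to 0.288 for different numbers. The fit was tested on simulated data.

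Genes named were to be called, at 10 CPM or more and of 1 sign in 4 pairs, which gave GPNMB alone. Others are the 3 smallest p of each list, 16 fixed genes, and genes chosen after their values were seen. The 28 gene lists and their members were chosen with earlier results of these data known, and no list was tested. Coordinates are from GENCODE 29 on GRCh38, promoters from RefSeq on GRCh38.p14. Exons of further named genes, SCG5, GAS5, HEXA, PHLDA3, BMF and CEBPB among them, also overlap those of other genes, which makes their counts less certain. The drug libraries were not used here. Alternatives were DESeq2 1.42.0, other scalings, filters and sets of libraries.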

Additional observations from a re-analysis of the deposited data

Results flagged for a closer look

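IGFBP5 was marked because its top step differed from the mean of the steps below it by a test of that difference (-1.49 on the log2 scale).

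Each of 72 groups of 4 values (libraries or pairs) was also checked for 1 value far from the other 3, by Dixon's test of the gap to its neighbour over the whole range. Chance marks about 1 group in 20, and 4 of 72 were marked, all of them list medians of 1 pair. The secreted and inflammatory list had a median log2 difference of 0.151 in pair 1, against 0.0382 to 0.0543 in the others. The reprogramming and chromatin list had -0.164 in pair 1, against -0.0305 to -0.022. The cholesterol synthesis list had -0.000829 in pair 1, against -0.0427 to -0.036. The melanocyte and Schwann cell markers, of which 4 were measured, had -0.359 in pair 2, against 0.572 to 0.677.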

How the results depend on the processing

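The number of genes called at the top step (2, of which 2 rose and 0 fell) moved with nearly every choice. It was 0 with no replicate block (375 genes at an unadjusted p under 0.05), 6 with the 16 gated libraries (6 higher), 168 with the 8 compared libraries (103 higher, 65 lower), 19 with DESeq2 (18 higher, 1 lower), 251 with no filter on low counts (143 higher, 108 lower), 1 at a minimum count of 50 (1 higher) and 2 with DESeq2's size factors in edgeR. Leaving out 1 library gave 1 to 63 calls, with 1 to 59 higher and 0 to 4 lower. It was 63 without high dye replicate 4, 13 without midhigh dye replicate 3, 2 without high dye replicate 2 (1 of them the fall of DDIAS) or midhigh dye replicate 4, and 1 without any other. Leaving out every library of 1 number gave 0 (replicate 1 or 2), 38 (replicate 3) and 17 (replicate 4) calls, with 0 to 34 higher and 0 to 4 lower. Genes called with a different top step numbered 5, of which 3 were flat below, with no filter on low counts. They numbered 0 under each other setting in which this was tested, a narrower interval and the bottom step as reference included. The fit of the 8 compared libraries holds no lower gate, so it could not give this test. The block changed the calls of GPNMB, VWCE and IGFBP5. List medians kept their sign in each alternative for the p53 (0.23 to 0.41), mitosis (-0.39 to -0.14) and DNA replication lists (-0.34 to -0.10), whereas their counts at an unadjusted p under 0.05 ranged from 13 to 27, 0 to 48 and 0 to 34. On leaving out 1 library or every library of 1 number, the log2 fold change changed sign for KLF4 (-0.011 to 0.178), POU5F1 (-0.515 to 0.0895), TERT (-0.0354 to 0.275), COL5A1 (-0.0613 to 0.0675) and MYC (-0.036 to 0.0131). The cause was not tested. Leaving out every library of 1 number, the list results and the IGFBP5 and collagen differences were added after the data were seen. DESeq2 gave no adjusted p for the IGFBP5 difference.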
